A study of Homo sapiens with 8 samples.

Results

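Ubiquitin E3 ligases and their adaptors were represented by 358 Ago2 peaks in 97 genes, out of 22506 peaks in 6326 genes in the authors' deposited table. Members were taken by gene symbol, as every peak of a gene whose symbol starts with FBXO, FBXW, FBXL, KLHL, TRIM, RNF or SPSB. The rule reads names and no measured value, so it also takes the pseudogenes RNF5P1 and RNF216P1, whose reads may come from their parent genes, and FBXO5, which is known as an inhibitor of a ligase. Ago2 is the Argonaute protein that carries microRNAs to their target transcripts. CLIP, in which Ago2 and the RNA it touches are crosslinked and pulled down together, was done on 293S cells, which descend from HEK293, a line of human embryonic kidney origin.

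The first group had been given emetine, an alkaloid that stops translation elongation, at 20 µg/mL for 60 minutes, and its control was the same line grown alike without emetine. Each treatment was 1 culture, divided among 3 CLIP aliquots with Ago2 antibodies of 3 makers (Abnova, Santa Cruz and Sigma) and 1 aliquot for RNA-seq. Every p-value here therefore measures the spread between aliquots and antibodies and not between cultures.

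A ubiquitin E3 ligase brings a substrate together with an E2 enzyme that carries ubiquitin, and so decides which proteins are marked. In cullin-RING ligases the substrate is held by an exchangeable receptor: F-box proteins (FBXW with WD40 repeats, FBXL with leucine-rich repeats, FBXO with other domains) serve CUL1, kelch-like KLHL proteins serve CUL3, and SPSB proteins dock through a SOCS box and elongins. TRIM and RNF proteins mostly carry their own RING domain, which binds the E2. Transcripts of some such genes are textbook microRNA targets, among them TRIM71 (LIN41), a target of let-7 in worms and vertebrates.

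MicroRNAs were not measured, so 6 seed families that are widely expressed in human cells are shown as the reference against which the 3' UTRs of the members were read. Capitals mark the seed, bases 2 to 8 of the mature sequence, as annotated in RefSeq (GRCh38.p14).
hsa-let-7a-5p: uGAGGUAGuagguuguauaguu
hsa-miR-17-5p: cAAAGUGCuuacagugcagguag
hsa-miR-92a-3p: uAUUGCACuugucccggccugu
hsa-miR-15b-5p: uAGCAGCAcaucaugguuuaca
hsa-miR-19b-3p: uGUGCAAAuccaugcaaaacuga
hsa-miR-30c-5p: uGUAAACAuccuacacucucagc
The bases complementary to these seeds are CTACCTC for let-7, GCACTTT for miR-17, GTGCAAT for miR-92, TGCTGCT for miR-15, TTTGCAC for miR-19 and TGTTTAC for miR-30. They were searched on the transcript strand alone, and a miR-19 match can overlap a miR-17 match.

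Of the 77 member genes with 3' UTR peaks, 74 were matched through their RefSeq transcript to a GENCODE 3' UTR (GRCh38), as were 4113 of 4310 genes in the whole table. At least 1 of the 6 motifs lay in 71.6% of the member 3' UTRs and in 67.5% of all 3' UTRs, whose median lengths were 1886 nt and 1655 nt. The let-7 motif occurred in 17.6% of the member and 12.1% of all 3' UTRs. For miR-17 the shares were 36.5% and 29.9%, for miR-92 they were 21.6% and 16.0%, and for miR-19 they were 27.0% and 21.7%. For miR-15 they were 31.1% and 30.1%, and for miR-30 they were 25.7% and 24.0%. These shares rise with the length of a 3' UTR and describe letters only. Some GENCODE models are shorter than the stretch the listed peaks cover, as in FBXO28, whose matched 3' UTR has 775 nt.

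TRIM71 had the most let-7 matches of the 74 member 3' UTRs, 6, with FBXW2 next at 2, and is shown because its peaks are described further on. It was chosen after its values were seen. Capitals mark the 7 matching bases, positions are on GRCh38, and all 6 lie on the plus strand of chromosome 3.
TRIM71, chr3:32891969-32891990: acattgcttaagtcCTACCTCa
TRIM71, chr3:32892049-32892070: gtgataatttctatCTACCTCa
TRIM71, chr3:32894502-32894523: gtaggtcagagataCTACCTCt
TRIM71, chr3:32895806-32895827: cttttgctgagtttCTACCTCa
TRIM71, chr3:32895829-32895850: ttgtggcaagtcatCTACCTCa
TRIM71, chr3:32895904-32895925: gtgggagtgggaagCTACCTCt
The first 2 matches start 172 and 252 bases after the stop codon, and 4 of the 6 are followed by an A, the base that lies opposite the first base of the microRNA.

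RNF11 and KLHL15 are shown because they rank among the 4 member genes with most peaks. FBXL19 and RNF122 also rank there and are not shown. The matched 3' UTR of FBXL19 had 0 matches to the 6 families, and that of RNF122 had 1, to miR-30. The 3' UTRs of RNF11 and KLHL15 hold no let-7 match and 4 matches each to the other families, here in the order of the transcript.
RNF11, miR-19, chr1:51271795-51271816, plus strand: tagttttaagcttgTTTGCACa
RNF11, miR-19, chr1:51272458-51272479, plus strand: attgtattttatgtTTTGCACa
RNF11, miR-92, chr1:51273103-51273124, plus strand: aaacaactgaagttGTGCAATa
RNF11, miR-17, chr1:51273346-51273367, plus strand: tgtgtcttttttagGCACTTTa
KLHL15, miR-19, chrX:23987871-23987892, minus strand: aaacaaagtatttgTTTGCACa
KLHL15, miR-17, chrX:23986902-23986923, minus strand: cctgcagcatgcaaGCACTTTt
KLHL15, miR-92, chrX:23986375-23986396, minus strand: atcttagaatattgGTGCAATa
KLHL15, miR-15, chrX:23986274-23986295, minus strand: tttgtttgttttttTGCTGCTg
Peaks are listed on hg19, so no match was placed inside or outside a peak.

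The deposited logarithms gave back the whole reads of each library for 22503 peaks, among them all 358 of the members. Reads in listed peaks came to 41364, 105220 and 97534 in emetine libraries 1 to 3 and to 40211, 117999 and 104143 in control libraries 1 to 3. Libraries are numbered within each treatment by the falling value of 1 read after scaling, and no antibody was assigned to a number. After the authors' scaling 1 read was worth 8.86, 3.00 and 2.81 for emetine, against 8.0, 2.82 and 2.43 for control. Members took 1.01%, 1.46% and 1.42% of these reads in emetine libraries 1 to 3, against 1.02%, 1.46% and 1.62% in control libraries 1 to 3. Of 8 markers of the HEK293 lineage, 3 had peaks (VIM, CDH2 and NEFL), and of 10 markers of other cell types, 0 had peaks.

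Ago2 reads on these transcripts lay mainly in 3' UTRs. The 3' UTRs held 224 member peaks (62.6%), coding sequence 108 (30.2%), 5' UTRs 24 (6.70%) and noncoding transcripts 2. Over all peaks with recovered reads the shares were 57.6%, 33.2% and 4.95% for 3' UTRs, coding sequence and 5' UTRs. By family, 3' UTRs held 81.8% of the 11 FBXW peaks, 75.8% of the 62 KLHL peaks and 42.6% of the 54 TRIM peaks, with no test of a difference. Single genes weigh in these shares: KLHL15 gave 24 of the 47 KLHL peaks in 3' UTRs and TRIM28 gave 10 of the 28 TRIM peaks in coding sequence. Without TRIM28, 54.8% of the TRIM peaks lay in 3' UTRs. The RNF family was the largest with 151 peaks in 38 genes, and the SPSB family the smallest with 3 peaks in SPSB1. A median member peak was 30 nt wide and held 15 reads over the 6 libraries, and 86 peaks (24.0%) had reads in a single library, against 26.4% of all peaks.

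None of the member peaks passed the test for a difference between emetine and control, nor did any peak of the table. The test was limma on log2(reads × factor + 1), with Benjamini-Hochberg adjustment over 22503 peaks, and called 0 of 358 members at an adjusted p of 0.05, against 0% of all peaks. Among members the smallest adjusted p was 0.784. Without adjustment, 6 member peaks (1.68%) had a p under 0.05, against 1.07% of all peaks. Of the 6, 5 were higher with emetine (TRIM8, RNF34, FBXO34 and RNF219 among them), where 0.769% of all peaks were, and 1 was lower (SPSB1), where 0.298% were. The median standard error of a member's log2 change was 2.06, so that differences of this size in a single peak were not detectable at this depth. The values themselves are given by gene family.

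The log2 change of the member peaks had a median of -0.22, against 0.01 over all peaks. It was above 0 for 159 members and below 0 for 199, while 50.2% of all peaks were above 0. In the authors' deposited table, whose ratio is taken relative to RNA, the log2 ratio had a median of -0.34 over the members and 0.05 over all peaks. By family the median log2 change was -0.77 for FBXW, -0.06 for FBXL, -0.71 for FBXO, -0.02 for KLHL, -0.95 for SPSB, -0.05 for TRIM and -0.30 for RNF. In 3' UTRs it was -0.38 for members and -0.17 for all peaks, and in coding sequence -0.09 for members and 0.29 for all peaks. The median of the members was 0.00 without control library 2 and also without control library 3, so its sign rests on those libraries. The median of all peaks moved too, to 0.00 without control library 2 and to 0.19 without control library 3.

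**Figure D1:**
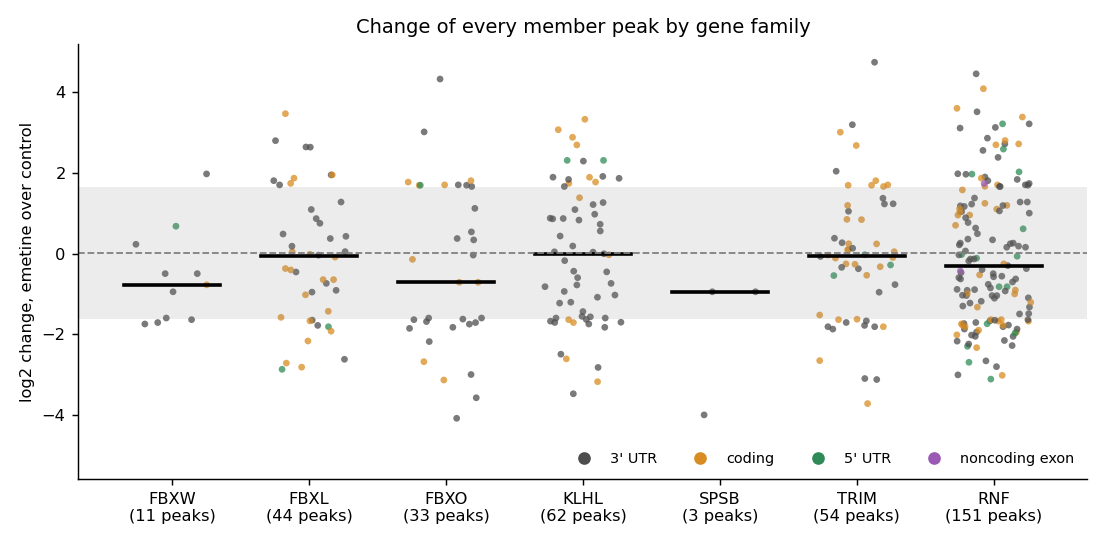
The log2 change (emetine over control, vertical axis) of each of the 358 member peaks, 1 point per peak, coloured by transcript region and grouped by gene family. Black bars are family medians, from -0.95 (SPSB) to -0.02 (KLHL); the dashed line is the median of all 22503 peaks (0.01) and the grey band runs from their lower to their upper quartile.

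In 14 member peaks (3.91%) the 3 emetine values did not overlap the 3 control values, against 3.97% of all peaks, a share near that background. Emetine lay above control in 9 of them, where 2.55% of all peaks did, and below in 5, where 1.43% of all peaks did. The peaks described next come from the 8 with the most positive and the 8 with the most negative log2 change among the 92 member peaks of at least 20 reads, 1 per gene and direction, with the other peaks that did not overlap and the main peaks of the best covered genes.

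**Figure D2:**
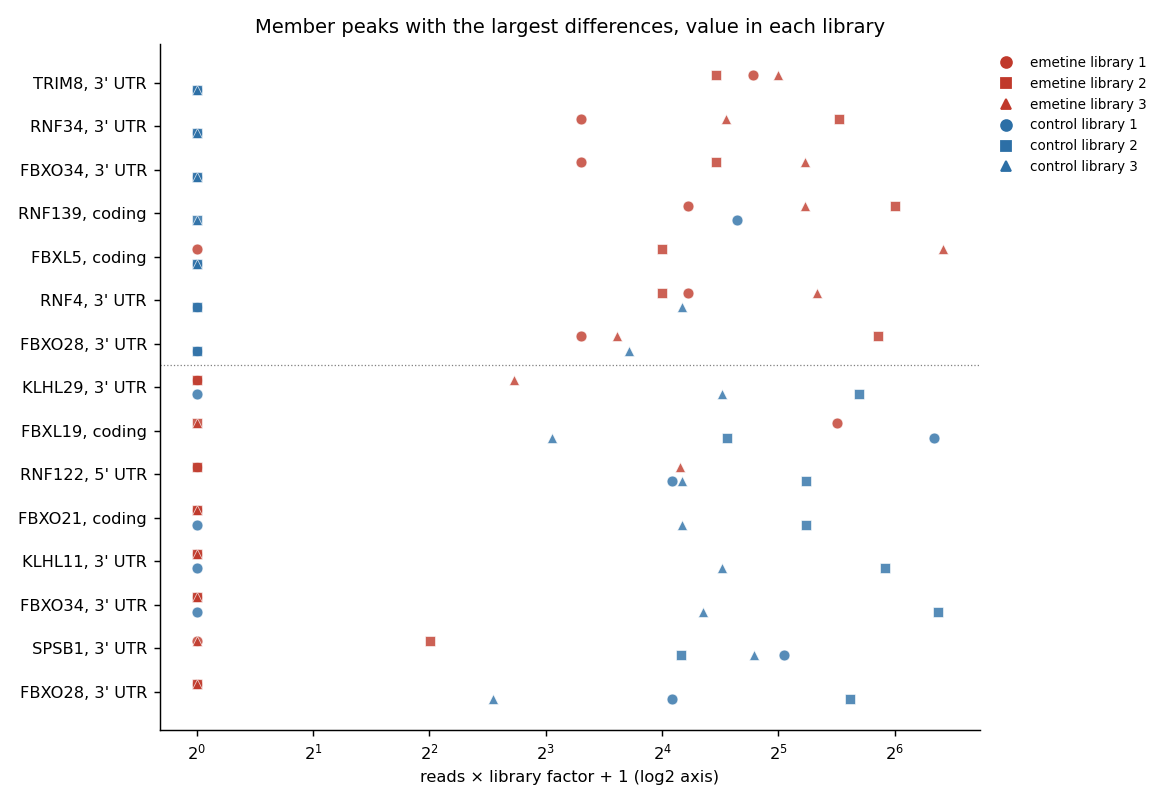
Value of 15 member peaks (rows) in each library, as reads × library factor + 1 on a log2 axis, emetine in red above control in blue, with circles, squares and triangles for libraries 1, 2 and 3. The upper 7 rows have positive and the lower 8 negative changes; in TRIM8, RNF34, FBXO34 (upper) and FBXL5 all 3 control libraries are at 0 reads.

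Among the F-box receptors of CUL1 ligases, the 4 FBXW genes had the same sign. FBXW7, the receptor for cyclin E and MYC, had 2, 8 and 15 reads over its peaks in emetine libraries 1 to 3, against 1, 37 and 17 reads in control libraries 1 to 3. FBXW11 (beta-TrCP2), a receptor for phosphorylated beta-catenin and I-kappa-B, had 0, 3 and 13 reads with emetine and 2, 22 and 14 reads in control. The groups overlapped in both genes, and the ratio of scaled read totals was 0.51 for FBXW7 (exact 95% interval 0.30 to 0.82) and 0.47 for FBXW11 (0.24 to 0.86). Such intervals cover counting error only, and reads without molecular identifiers are not independent molecules. Where peaks of a gene overlap, as in 41 of the 261 neighbouring pairs of member peaks, the sum over the gene counts some reads again, and its interval is then too narrow. Without control library 2 the ratio of FBXW7 was 0.93, and without emetine library 3 that of FBXW11 was 0.16. Over the 4 genes the log2 changes of summed reads ran from -2.21 in FBXW11 to -0.33 in FBXW7, and limma passed none (smallest adjusted p 0.800 over all genes).

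Among the FBXL receptors, FBXL5, the iron-sensing receptor for IRP2, had a coding peak at chr4:15627348-15627375 (hg19, minus strand) with 0, 5 and 30 reads with emetine and 0 reads in every control library. Against a floor set at 3 control reads in all that is at least 12.96-fold higher, and the exact 95% lower limit of the ratio, which also counts the error of the emetine reads, was 10.0. Emetine library 1 was at 0 as well and the groups met there (log2 change 3.47 ± 2.13 SE, limma adjusted p 0.784). Most of the reads came from emetine library 3, and without it the log2 change was 2.00. Over its 6 peaks, 2 higher and 4 lower, FBXL5 had 2, 30 and 30 reads with emetine and 5, 45 and 0 reads in control. The ratio of totals of the gene was 1.38 (0.93 to 2.04).

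FBXL19, a DNA-binding F-box protein with a CXXC zinc finger, had 19 peaks. It had 79, 21 and 27 reads with emetine and 87, 50 and 58 reads in control. Over both treatments 51.6% of its reads came from the 2 libraries numbered 1, against 16.1% over all peaks. The ratio of totals was 0.72 (0.57 to 0.91), and it was 0.32 without emetine library 1 and 1.12 without control library 1. Its lowest named peak, in coding sequence at chr16:30941621-30941706 (hg19), had 5, 0 and 0 reads with emetine and 10, 8 and 3 reads in control. The part that library 1 plays in these values was not tested beyond leaving it out.

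FBXO34 and FBXO28 each held peaks of opposite sign within their 3' UTR. In FBXO34 the peak at chr14:55819870-55819896 (hg19, plus strand) had 1, 7 and 13 reads with emetine and 0 reads in every control library. Its neighbour, 27 nt upstream at chr14:55819785-55819843, had 0 reads in every emetine library and 0, 29 and 8 reads in control. The log2 changes were 4.33 ± 2.07 and -3.57 ± 2.12 (SE, limma adjusted p 0.784 for each). Only the first of them separated the groups without overlap, at least 7.78-fold higher against the floor of 3 control reads and with an exact lower limit of 5.79. The gene as a whole had 3, 18 and 25 reads with emetine and 2, 29 and 47 reads in control.

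FBXO28 repeated this picture over a longer stretch. Its main 3' UTR peak at chr1:224345811-224345846 (hg19, plus strand) had 3, 48 and 37 reads with emetine and 2, 27 and 60 reads in control, a ratio of 1.10 (0.81 to 1.49) that was 0.85 without emetine library 2 and 1.81 without control library 3. Downstream, the peak at chr1:224348722-224348755 had 1, 19 and 4 reads with emetine against 0, 0 and 5 reads in control. The last peak, at chr1:224349166-224349191, had 0 reads in every emetine library and 2, 17 and 2 reads in control, with no overlap between the groups (log2 change -4.08 ± 2.09 SE, limma adjusted p 0.784). A single peak, the main one, held 63.4% of the reads of FBXO28. FBXO21 had a coding peak at chr12:117583903-117583927 with 0 reads in all emetine libraries and 0, 13 and 7 reads in control. Over its 2 peaks, 1 higher and 1 lower, FBXO21 had 1, 0 and 8 reads with emetine and 0, 14 and 9 reads in control. FBXO44 had 0 reads over its 2 peaks with emetine and 3, 0 and 22 reads in control. FBXO5 (EMI1), an inhibitor of the anaphase-promoting complex, had 3, 13 and 30 reads with emetine and 1, 11 and 6 reads in control, a ratio of 2.84 (1.61 to 5.2). It was 1.78 without emetine library 3 and 4.40 without control library 2.

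**Figure D3:**
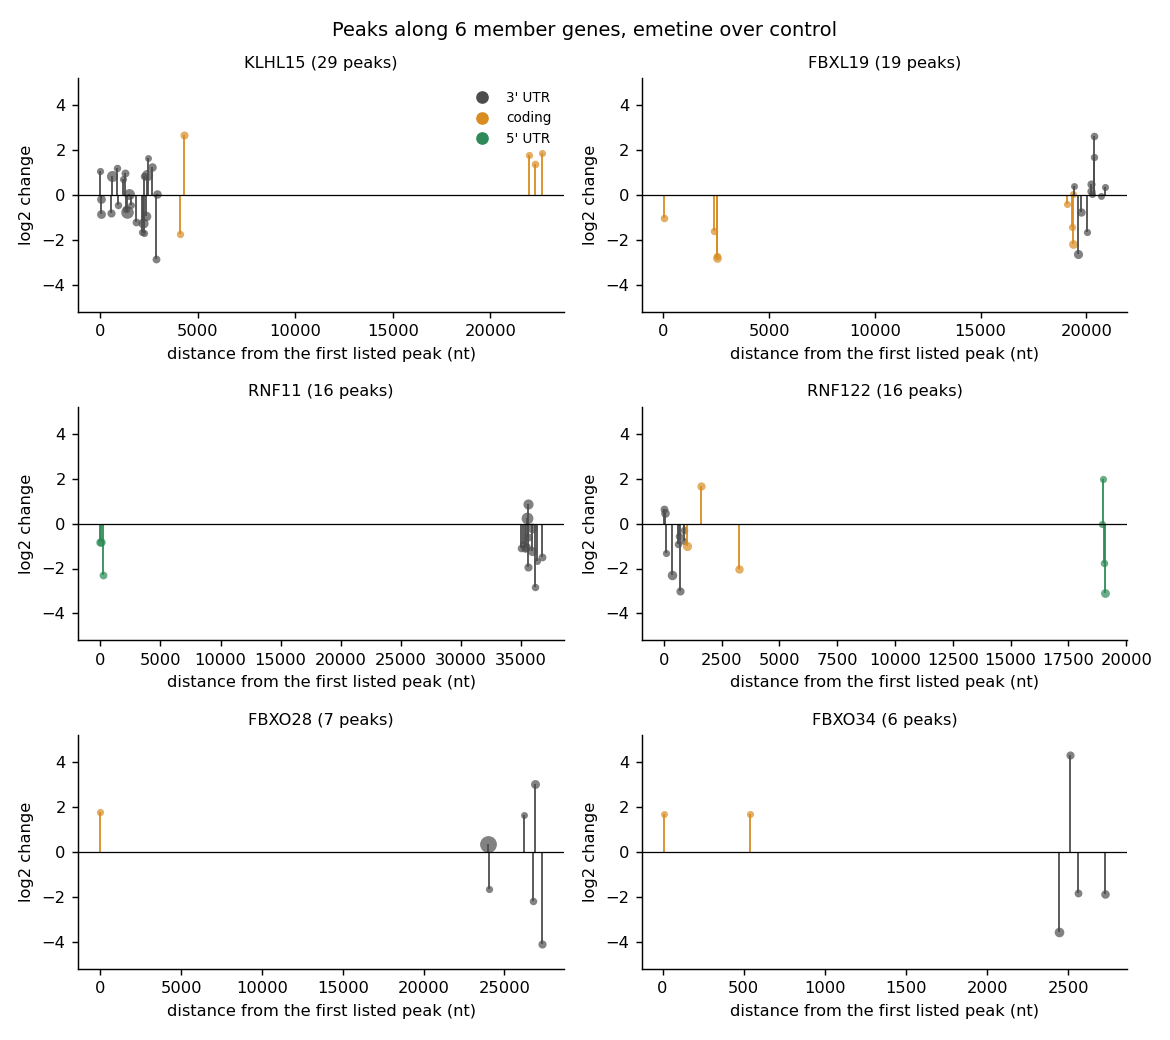
The log2 change (emetine over control, vertical axis) of each peak against its distance in nt from the lowest listed coordinate of the gene, for KLHL15, FBXL19, RNF11, RNF122, FBXO28 and FBXO34; point area grows with reads and colour gives the region. Most peaks of RNF11 (14 of 16) and RNF122 (12 of 16) lie below 0, while those of KLHL15 split into 15 above and 14 below.

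Peaks of both signs on the same gene were usual: they occurred in 46 of the 65 member genes with at least 2 peaks (70.8%) and in 71.5% of all such genes. With at least 5 peaks the count was 22 of 23 member genes, where 95.3% of all such genes had both signs.

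Among the kelch-like adaptors of CUL3, KLHL15 had the most peaks of all members. KLHL15, which targets a regulatory subunit of the phosphatase PP2A, had 29 peaks, 24 of them in the 3' UTR, and some of these overlap and share reads. Its reads summed to 28, 202 and 111 with emetine and to 18, 117 and 245 in control. Emetine library 2 and control library 3 were the highest, and the ratio of totals was 1.00 (0.86 to 1.16). It was 0.69 without emetine library 2 and 1.51 without control library 3. The coding peak at chrX:24024735-24024808 (hg19, minus strand) was the only KLHL15 peak without overlap, with 1, 6 and 3 reads with emetine and 1, 1 and 0 reads in control. This separation rests on the scaling of single reads. A read of emetine library 1 was worth 8.86 and a read of control library 1 was worth 8.0. Under median-of-ratios scaling they were worth 5.27 and 5.38, and the groups overlapped. The peak at chrX:24003473-24003528, in the 3' UTR, had 4, 13 and 6 reads with emetine and 3, 18 and 38 reads in control.

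The other KLHL genes ran both ways, with 7 genes higher and 7 lower in all. KLHL28 had 1, 16 and 22 reads over 7 peaks with emetine and 2, 28 and 35 reads in control. KLHL20, an adaptor for death-associated protein kinase, had 0, 27 and 41 reads with emetine and 6, 3 and 0 reads in control. Its ratio of totals was 8.40 (4.17 to 19.1), 4.51 without control library 3 and 21.7 without control library 1, and all 5 of its peaks were higher, yet emetine library 1 was below control library 1. KLHL20 lies outside the rule for named genes and was chosen after its values were seen. KLHL11 had a 3' UTR peak at chr17:40009829-40009860 (hg19) with 0 reads in all emetine libraries and 0, 21 and 9 reads in control. Over its 4 peaks, 2 higher and 2 lower, KLHL11 had 2, 0 and 24 reads with emetine and 0, 31 and 19 reads in control. In KLHL29 the 3' UTR peak at chr2:23931358-23931407 had 0, 0 and 2 reads with emetine and 0, 18 and 9 reads in control.

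SPSB1, an adaptor with a SOCS box that is known to bind inducible nitric oxide synthase, had far fewer reads in the emetine libraries. It had 0, 7 and 0 reads over 3 peaks in emetine libraries 1 to 3 and 4, 56 and 11 reads in control libraries 1 to 3. All 3 peaks were lower, but only 1 of them separated the groups. A pair of the 3 lists the same reads, which the sum counts again. The summed values did not overlap after the authors' scaling, but did under median-of-ratios scaling. There the 7 reads of emetine library 2, worth 3.95 each, lay above the 4 reads of control library 1, worth 5.38 each. The ratio of totals of SPSB1 was 0.11 (0.04 to 0.24), 0.097 with that pair counted once. It was 0.070 without control library 3 and 0.31 without control library 2, which held most of its control reads. The peak at chr1:9429193-9429238 (hg19, plus strand) had 0, 1 and 0 reads with emetine and 4, 6 and 11 reads in control. Its log2 change was -4.00 ± 1.99 (SE, limma adjusted p 0.784), and -4.89 in the authors' deposited table, where the ratio is relative to RNA. The RNA libraries held 52 SPSB1 reads with emetine and 11 in control, a log2 ratio of 0.89 after scaling whose counting interval, -0.06 to 1.98, includes 0.

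The best covered members of the TRIM family drew on library 1. TRIM28 (KAP1), the corepressor recruited by KRAB zinc finger proteins, had 76, 1 and 36 reads over 12 peaks with emetine and 35, 16 and 58 reads in control. Its ratio of totals was 1.15 (0.88 to 1.51), but 0.44 without emetine library 1 and 1.95 without emetine library 2. By the mean of logarithms its sign was the opposite, with a log2 change of -0.91 ± 1.04 (SE), and 7 of its 12 peaks were lower. Its coding peak at chr19:59059001-59059036 (hg19) had 0 reads with emetine and 1, 15 and 2 reads in control, without overlap. TRIM65, a RING ligase, had 31, 4 and 1 reads with emetine and 43, 9 and 1 reads in control. Libraries 1 held 83.1% of the reads of TRIM65 and 50% of those of TRIM28, and the ratio of TRIM65 (0.75, 0.48 to 1.17) was 0.12 without emetine library 1 and 3.44 without control library 1. What this does to the comparison was not tested further.

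TRIM8 and TRIM32 had reads with emetine alone in the peaks named here. The TRIM8 peak at chr10:104417321-104417370 (hg19, plus strand, 3' UTR) had 3, 7 and 11 reads with emetine and 0 reads in every control library. This was the most positive change among the members, at least 7.78-fold against the floor of 3 control reads, with an exact lower limit of 5.79 (log2 change 4.75 ± 2.04 SE, limma adjusted p 0.784). A second TRIM8 peak was seen in control library 2 alone, and the gene sum was 3, 7 and 11 reads with emetine against 0, 14 and 0 reads in control. TRIM32, a ligase known from a limb-girdle muscular dystrophy, had 2, 9 and 15 reads over 2 peaks with emetine and 0 reads in control, at least 9.63-fold higher against the floor, with an exact lower limit of 7.29 (limma adjusted p 0.800). TRIM23, which also carries an ARF-like GTPase domain, had 2, 31 and 4 reads with emetine and 0, 0 and 13 reads in control.

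TRIM71 was split along its 3' UTR, in which the let-7 matches printed above lie. The peak at chr3:32933608-32933652 (hg19) had 0, 0 and 1 reads with emetine and 1, 11 and 3 reads in control, without overlap. The next peak, at chr3:32933707-32933732, had 0, 6 and 8 reads with emetine and 1, 1 and 0 reads in control. The first 3' UTR peak, at chr3:32933316-32933353, had 1, 5 and 0 reads with emetine and 3, 16 and 0 reads in control. The RNA libraries held only 17 reads of TRIM71 with emetine and 8 in control, so its RNA ratio could not be read at this depth. The let-7 matches start 172 to 4107 bases after the stop codon, a longer stretch than these peaks span, so not all can lie in them. Whether any of these peaks holds a match was not tested.

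Among the RNF genes, RNF11 and RNF122 had lower totals with emetine over many peaks. RNF11, a small RING protein of the A20 ubiquitin-editing complex, had 9, 33 and 85 reads over 16 peaks with emetine and 13, 155 and 118 reads in control. Of its 16 peaks 14 were lower, and the ratio of totals was 0.49 (0.40 to 0.61). The emetine and control ranges overlapped, and leaving out 1 library moved the ratio between 0.29 (without emetine library 3) and 0.65 (without control library 2). A pair of overlapping 5' UTR peaks lists the same 22 reads of control library 3, and the ratio was 0.53 with that pair counted once. Its other 5' UTR peak, at chr1:51702253-51702305 (hg19, plus strand), had 1, 0 and 2 reads with emetine and 4, 6 and 5 reads in control, without overlap. The strongest 3' UTR peak, at chr1:51737544-51737580, had 2, 5 and 28 reads with emetine and 1, 10 and 22 reads in control, a ratio of 1.18 (0.71 to 1.96) that was 0.42 without emetine library 3 and 1.90 without control library 3.

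RNF122, a membrane-anchored RING protein, had 16, 44 and 35 reads over 16 peaks with emetine and 14, 86 and 120 reads in control. Its ratio was 0.48 (0.37 to 0.61) and stayed between 0.44 and 0.57 when any 1 library was left out. The groups overlapped in scaled values, with control library 1 below emetine libraries 1 and 2. The RNF122 5' UTR peak with the most negative change had 0, 0 and 6 reads with emetine and 2, 13 and 7 reads in control. By the test on logarithms these 2 genes did not pass: the log2 changes of summed reads were -0.92 ± 0.80 for RNF11 and -0.70 ± 0.83 for RNF122 (SE, limma adjusted p 0.800 for each).

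RNF149, a RING protein with a protease-associated domain, had a dominant site. The 3' UTR peak at chr2:101893096-101893129 (hg19, minus strand) had 5, 85 and 89 reads with emetine and 2, 36 and 78 reads in control, a ratio of 1.71 (1.35 to 2.18), and the groups overlapped. The ratio was 2.81 without control library 3. The neighbouring peak at chr2:101893038-101893084 had 3, 16 and 5 reads with emetine and 1, 0 and 2 reads in control, without overlap. Over its 9 peaks RNF149 had 14, 115 and 120 reads with emetine and 8, 95 and 111 reads in control.

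Several RNF peaks were nearly empty in control. Of the 151 RNF peaks, 21 (13.9%) had 0 reads in control, against 17.7% of all peaks. In the emetine libraries 26 (17.2%) had 0 reads, against 20.2% of all peaks. The RNF34 peak at chr12:121861427-121861461 (hg19, 3' UTR) had 1, 15 and 8 reads with emetine and 0 reads in control, at least 8.89-fold higher against the floor, with an exact lower limit of 6.69 (log2 change 4.46 ± 2.06 SE, limma adjusted p 0.784). RNF34 is known to ubiquitinate caspases, and over its 3 peaks it had 1, 15 and 19 reads with emetine and 0, 0 and 15 reads in control.

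RNF139 (TRC8), a sterol-sensing ligase of the endoplasmic reticulum, had a coding peak with 2, 21 and 13 reads with emetine and 3, 0 and 0 reads in control. Control library 1 was above emetine library 1 there. RNF4, the ligase that recognises SUMO chains, had a 3' UTR peak at chr4:2516133-2516173 with 2, 5 and 14 reads with emetine and 0, 0 and 7 reads in control. Over its 11 peaks RNF4 had 5, 64 and 31 reads with emetine and 9, 50 and 45 reads in control. RNF146, which reads poly(ADP-ribose) and acts on axin, had 1 coding peak with 1, 1 and 10 reads with emetine and 0 reads in control, without overlap.

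Coding peaks of RNF219 and RNF103 also separated the groups, and these 2 genes were chosen after their values were seen. The RNF219 peak at chr13:79213177-79213205 (hg19) had 2, 9 and 3 reads with emetine and 0 reads in control. Over 6 peaks RNF219, known as OBI1 from replication origins, had 4, 73 and 85 reads with emetine and 9, 35 and 10 reads in control, a ratio of 3.33 (2.44 to 4.62) that was 2.2 without control library 3 and 5.71 without control library 2. Over the whole gene the groups overlapped, with a log2 change of 1.13 ± 1.06 (SE, limma adjusted p 0.800). A single peak held 49.5% of the RNF219 reads, and the 3' UTR peaks alone had a log2 change of -0.92. The RNF103 peak at chr2:86831938-86831989 had 3, 8 and 4 reads with emetine and 1, 0 and 1 reads in control.

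RNF169 and RNF40 are ligases or readers of histone ubiquitin. RNF169, which binds ubiquitinated histone H2A at DNA breaks, had 11, 39 and 17 reads over 6 peaks with emetine and 12, 0 and 8 reads in control, a ratio of 3.72 (2.23 to 6.48). It was 2.24 without control library 2 and 8.0 without control library 1. Control library 1 overlapped the emetine values, and the log2 change was 2.72 ± 1.51 (SE, limma adjusted p 0.800). RNF40, which ubiquitinates histone H2B together with RNF20, had 0, 1 and 0 reads over 2 peaks with emetine and 3, 21 and 8 reads in control, without overlap. Its log2 change was -4.30 ± 2.35 (SE, limma adjusted p 0.800).

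With reads summed over the peaks of a gene, 41 of the 97 member genes were higher and 56 lower with emetine, and the median log2 change was -0.20, against 0.04 over all 6323 genes. Limma passed 0 member genes at an adjusted p of 0.05, against 0% of all genes, and 2 (2.06%) at an unadjusted p under 0.05 (TRIM32 and SPSB1), against 1.83% of all genes. The 3 libraries of each group did not overlap in 4 member genes (4.12%), TRIM32 and RNF146 above and RNF40 and SPSB1 below, where 5.19% of all genes did not overlap. Under median-of-ratios scaling the groups overlapped in SPSB1. KLHL21, with 0 reads with emetine and 1, 0 and 10 reads in control, was another of the 5 lower genes with the smallest p (-2.61 ± 2.2 SE, limma adjusted p 0.800).

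**Figure D4:**
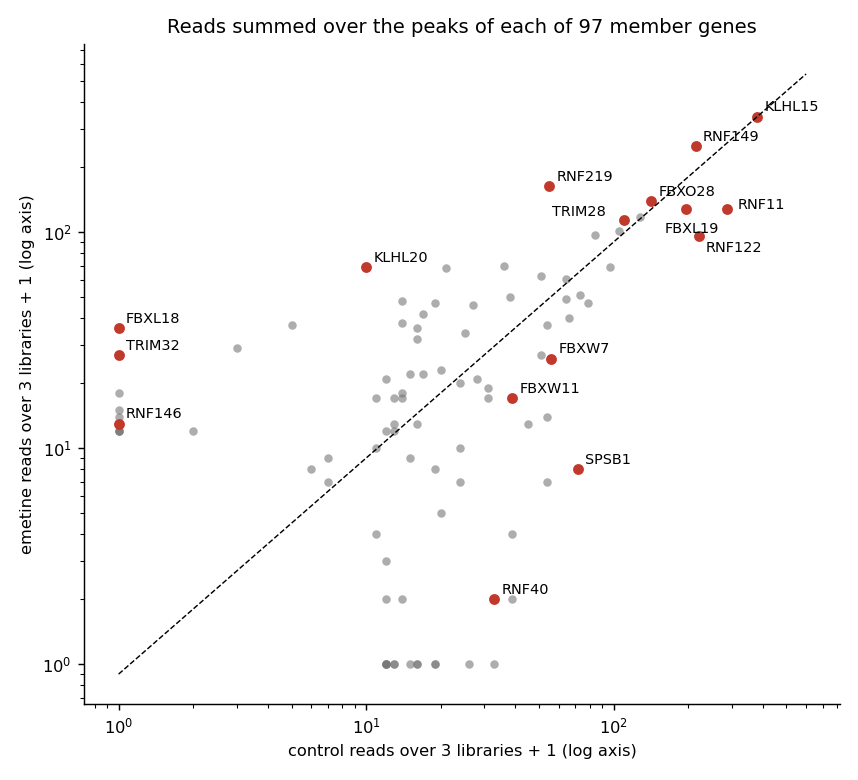
Reads over the 3 emetine libraries (vertical) against reads over the 3 control libraries (horizontal) of the 97 member genes, each + 1 on log axes. The dashed line marks equal totals after scaling; KLHL15 lies on it, RNF219, KLHL20 and TRIM32 lie above, and RNF11, RNF122, SPSB1 and RNF40 lie below.

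RNA-seq, with 1 library per treatment, has no replicate check. It held at least 50 reads of 90 member genes, whose log2 ratio had a median of 0.10 with 58 genes above 0 and 32 below, against a median of 0.01 over 5812 genes. A log2 ratio above 0.5 was found for 6 members (6.67%, against 6.19% of all genes) and a ratio below -0.5 for 4 members (4.44%, against 5.92%). Of the 90 members, 0 lay above 1 and 0 below -1, where 0.843% and 0.774% of all genes lay. Of the 7 members with fewer RNA reads, 2 lay beyond 1 in size (TRIM56 and RNF5P1), on 12 and 11 reads. In these bulk samples fewer cells of a kind and less RNA per cell cannot be told apart.

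The 3 highest RNA ratios were those of SPSB1 with 52 reads with emetine and 11 in control (log2 ratio 0.89), RNF168 with 547 reads with emetine and 121 in control (0.83) and FBXO5 with 1372 with emetine and 312 in control (0.79). RNF168 is the ligase that ubiquitinates H2A at DNA breaks. RNF144A, a RING-between-RING ligase, had 128 reads with emetine and 33 in control (0.61). At the other end stood RNF157 with 100 reads with emetine and 61 in control (-0.63), FBXL19 with 151 with emetine and 91 in control (-0.61) and RNF121 with 193 with emetine and 112 in control (-0.56). KLHL3, the adaptor that takes WNK kinases to CUL3, had 53 reads with emetine and 30 in control (-0.52), and RNF150 had 130 with emetine and 69 in control (-0.43). The counting intervals of the SPSB1, KLHL3 and RNF150 ratios include 0. After scaling 1 emetine RNA read was worth 2.51 and 1 control RNA read 6.37, which is why more emetine reads can stand beside a negative ratio.

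**Figure D5:**
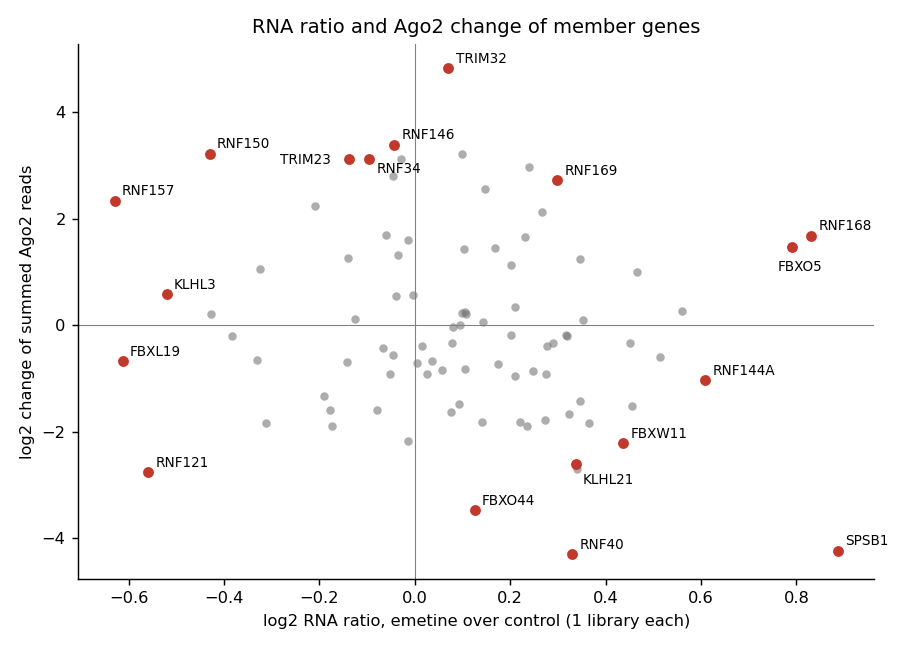
Log2 change of summed Ago2 reads (vertical axis, emetine over control) against the log2 RNA ratio (horizontal axis, 1 library per treatment) for the 90 member genes with at least 50 RNA reads. SPSB1 lies at the lower right with an RNA ratio of 0.89 and an Ago2 change of -4.23, and RNF157 at the upper left with -0.63 and 2.34.

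The genes at the ends of the RNA range had Ago2 changes of both signs. FBXO5 was higher in RNA (log2 ratio 0.79) and in Ago2 reads (ratio of totals 2.84). FBXL19 was lower in RNA (log2 ratio -0.61) and in Ago2 reads (ratio of totals 0.72). The Ago2 groups overlapped in FBXO5 and in FBXL19. RNF168 and RNF121 also had the same sign in RNA and Ago2. The signs were opposite in SPSB1, RNF144A, RNF157, RNF150 and KLHL3. SPSB1, whose RNA interval includes 0, had fewer Ago2 reads with emetine. RNF168 had 3, 1 and 16 Ago2 reads with emetine and 0, 9 and 2 in control, a ratio of 2.02 whose interval (0.92 to 4.67) includes 1. For RNF144A the Ago2 reads were 0, 0 and 1 with emetine and 0, 0 and 13 in control, in a single peak. RNF157 had 2, 15 and 24 Ago2 reads with emetine and 0, 10 and 6 in control. RNF121 had 1, 0 and 0 Ago2 reads with emetine and 1, 1 and 36 in control, nearly all of these in control library 3. In RNF168, RNF144A, RNF157 and RNF121 the groups overlapped. RNF150 had 5, 0 and 6 Ago2 reads with emetine and 0 in control. KLHL3 had 0, 10 and 1 reads with emetine and 0, 12 and 0 in control.

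Of the rest of the ubiquitin pathway, 3 lists were read beside the members: the cullins and their core partners, other E3 ligases, and the E1 and E2 enzymes. In the cullin list 23 of 34 genes had peaks, with 12 higher and 11 lower and a median log2 change over genes of 0.18. Of the other E3 ligases 50 of 72 had peaks, 24 higher and 26 lower, with a median of -0.15, and of the E1 and E2 enzymes 22 of 32, 9 higher and 13 lower, with a median of -0.93. Limma passed 0 genes in each list at an adjusted p of 0.05, against 0% of all genes. At an unadjusted p under 0.05 there were 2 (8.70%), 0 and 2 (9.09%), against 1.83% of all genes.

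CUL1, the scaffold that the F-box receptors dock on, had 6, 37 and 13 reads over 3 peaks with emetine and 1, 0 and 0 reads in control (log2 change 4.88 ± 2.10 SE, limma adjusted p 0.800). DCUN1D4, a cofactor of cullin neddylation, had 4, 44 and 19 reads with emetine and 0, 1 and 2 reads in control. CUL4B went the other way with 2, 0 and 4 reads with emetine and 1, 47 and 24 reads in control. The groups did not overlap in CUL1 and DCUN1D4 and did in CUL4B.

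Among the E2 enzymes, UBE2K had 12, 55 and 38 reads with emetine and 12, 0 and 37 reads in control, UBE2V2 had 2, 11 and 12 with emetine and 0 in control, and UBE2D3 had 8, 12 and 16 with emetine and 3, 0 and 9 in control. After the authors' scaling these 3 of the 22 E1 and E2 genes with peaks did not overlap. In the cullin list 3 of 23 genes did not (UBE2M besides CUL1 and DCUN1D4). Of the other E3 ligases 2 of 50 did not (ITCH and WWP1), where 5.19% of all genes did not overlap. Under median-of-ratios scaling the groups overlapped in UBE2K, ITCH and WWP1. The 12 UBE2K reads of emetine library 1 were then worth 5.27 each, and the 12 of control library 1 were worth 5.38 each. The 1 ITCH read of emetine library 1 lay below 2 reads of control library 3, worth 2.93 each. The 1 WWP1 read of emetine library 1 lay below 2 reads of control library 2, worth 4.28 each. Of the other ligases, DTL, a CUL4 receptor that acts on PCNA, had 6, 25 and 26 reads with emetine and 0, 75 and 2 reads in control. RCHY1 (PIRH2), a ligase for p53, had 0 reads with emetine and 0, 37 and 11 reads in control. PELI2, a ligase of Toll-like receptor signalling, had 2, 24 and 0 reads with emetine and 0 in control.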

How the data were processed

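The 8 libraries are 3 Ago2 CLIP libraries and 1 RNA-seq library per treatment. The authors deposited 1 table, which per the file headers lists each peak with its gene and transcript and, as logarithms, a normalised average and an emetine ratio. The values fit the natural log, a base that the authors' headers do not state. Bowtie 0.12.8, TopHat, DESeq and the build hg19 come from the submitters' processing notes, which assign them no step. The peak caller is not given in the sources used here.

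A treatment's value, the average plus or minus 0.5 of the ratio, is what its 3 CLIP libraries average as ln(1 + scaled reads), less the same logarithm of its RNA library; this form was read from the values. Whole reads satisfying this were recovered for 22503 of 22506 peaks (99.987%, tolerance 2e-13), and the 3 others were left out. The table has no column per library, so the antibody could not enter a fit. limma 3.58.1 (R 4.3.3) with a trend was run on log2(reads × factor + 1), treatment alone, all peaks, no filter, with Benjamini-Hochberg adjustment at 0.05, and likewise on sums per gene. Recovery and fit were tested on simulated data. A log2 change is a difference of mean logarithms and had another sign than the ratio of totals for 33 members. Ratios of totals carry exact binomial 95% intervals, and 0 reads over a treatment were set at 3. The members and lists were chosen with earlier results of these data known. Named genes were the 2 best covered per family (1 in SPSB), the 8 highest and 8 lowest peaks of at least 20 reads, the 4 genes with most peaks, the 5 highest and 5 lowest RNA ratios, the 5 smallest p of gene sums in each direction, and the 3 smallest p per list; 2 of these genes are not reported here. Figures were drawn with matplotlib 3.10.9 in Python 3.11.15.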

Additional observations from a re-analysis of the deposited data

How the results depend on the processing

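The alternatives were an added constant of 0.5 or 5, median-of-ratios scaling, a minimum of 3 libraries with reads, peaks of identical reads counted once, limma-voom for peaks, and each library left out. The count of 0 member peaks and 0 member genes past the adjusted test held under all of those run. Member peaks at an unadjusted p under 0.05 numbered 6, but 3 with a constant of 5, 10 with limma-voom and 2 to 8 with 1 library left out (2 without emetine library 2 or 3). Member peaks without overlap numbered 14, and 27 to 40 with 1 library left out, where fewer values have to separate. The median log2 change of member peaks (-0.22) lay between -0.46 and 0.00 with 1 library left out. That of all peaks (0.01) lay between -0.11 and 0.19. Median-of-ratios scaling moved the median of all peaks by -0.11 and that of the members to -0.32. The limma fits of gene sums did not include limma-voom, median-of-ratios scaling or identical peaks counted once. No paired analysis was possible because the table names neither the antibody nor the replicate number of any value. A median member peak rests on 15 reads. The ratios of read totals of single genes and peaks under left-out libraries, 3' UTR peaks alone and identical peaks counted once were added after seeing the data.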
